A study of Homo sapiens with 18 samples.

Results

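The genes described here encode the proteins of the mitochondrial ribosome and of the oxidative phosphorylation (OXPHOS) complexes, together with the assembly factors that carry the same symbols. They were chosen by symbol alone, as protein-coding genes of GENCODE whose name begins with MRPL, MRPS, NDUF, UQCR, SDH followed by a letter from A to D, COX followed by a digit, or ATP5. The rule gave 189 genes, of which 2 were readthrough genes, and 164 of the 189 had an intron in the splicing table. Of the 1119 introns that joined annotated exon boundaries of these genes, 704 introns in 158 genes had a mean PSI from 0.01 to 0.99 and were tested, out of 152722 tested introns in the whole series. PSI (percent spliced in) is the share of the reads spanning the introns of a cluster, a set of introns with shared splice sites, that removed a given intron. It is given below in percent. PSI compares introns within a cluster and measures neither the expression of a gene nor the retention of an intron.

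The libraries came from SHEP.tet21n, a neuroblastoma cell line carrying a MYCN transgene that doxycycline (Dox) switches off. Dox-treated cells, at 2 µg/mL (MYCN-), and cells given DMSO vehicle (MYCN+) received a control siRNA (SNRPD3+) or either of 2 siRNAs, #1 and #2, against SNRPD3 (SNRPD3-), a core Sm protein of the spliceosomal snRNPs. The 6 groups were MYCN-/SNRPD3+ (called wildtype), MYCN+/SNRPD3+, MYCN-/SNRPD3- with siRNA #1, MYCN-/SNRPD3- with siRNA #2, MYCN+/SNRPD3- with siRNA #1 and MYCN+/SNRPD3- with siRNA #2, each with 3 libraries, 18 in all. Every MYCN- library came from Dox-treated cells and every MYCN+ library from cells without Dox, so MYCN status and exposure to Dox cannot be told apart. Dox belongs to the tetracyclines, a class of antibiotics that also block translation by mitochondrial ribosomes, which makes this limit relevant to the present genes. All libraries came from 1 cell line, and the labels do not say whether replicates were separate cultures, while the study describes its RNA-seq results as coming from independent biological replicates. The p-values measure the spread between these libraries. Repression of MYCN and knockdown of SNRPD3 cannot be read from PSI and were not checked, nor could the cell line be checked by the level of marker genes.

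As background, the mitochondrial ribosome translates the few proteins that mitochondrial DNA encodes, all of them subunits of OXPHOS complexes. Its own proteins (MRPL for the large subunit, MRPS for the small one) and most OXPHOS subunits are nuclear genes whose introns the spliceosome removes. Complexes I to IV (NDUF, SDH, UQCR and COX genes) pass electrons to oxygen and, except for complex II, pump protons, and complex V (ATP5 genes) uses the proton gradient to make ATP. MYC proteins are known to raise the expression of many genes of mitochondrial biogenesis, which PSI does not register.

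Several of the exons and splice sites that the results below turn on are shown first, in hg38, 5′ to 3′ on the strand of the gene. Each line of a whole exon starts with 10 intronic bases and ends with 8, and capitals mark the AG that ends the intron before the exon and the GT that opens the intron after it. A pair of skipped coding exons is shown because their lengths bear on the reading frame. The 92 bases of exon 3 of NDUFS1 (chr2:206152419-206152510, minus strand) and the 88 bases of exon 3 of NDUFA12 (chr12:94994170-94994257, minus strand) are not a multiple of 3, so that joining the flanking exons would shift the frame in these 2 genes.
NDUFS1 exon 3: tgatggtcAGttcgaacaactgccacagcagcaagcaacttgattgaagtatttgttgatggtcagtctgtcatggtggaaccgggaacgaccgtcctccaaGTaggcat
NDUFA12 exon 3: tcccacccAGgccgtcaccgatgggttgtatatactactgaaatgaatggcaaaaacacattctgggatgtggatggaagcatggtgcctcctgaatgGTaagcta

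The next sequences are shown because they are the alternatives to a usual splice. In MRPS27, an earlier 3′ splice site adds 66 bases to the start of exon 10 (chr5:72223851-72223916, minus strand). The extension is a multiple of 3 and held no stop codon in the reading frame of the Ensembl canonical transcript. In COX7A2, 2 introns of the table define an exon of 116 bases within intron 1 that is outside the annotation (chr6:75243423-75243538, minus strand). Read in the frame of the canonical transcript, its first stop codon began at base 13 of the exon. In the MRPS27 extension only the AG before it is in capitals, and the second MRPS27 line shows the usual 3′ splice site of exon 10 with its first 3 exonic bases.
MRPS27 extension of exon 10: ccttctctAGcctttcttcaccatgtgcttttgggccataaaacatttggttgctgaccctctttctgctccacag
MRPS27 usual 3′ splice site of exon 10: accctctttctgctccacAGctc
COX7A2 exon outside the annotation: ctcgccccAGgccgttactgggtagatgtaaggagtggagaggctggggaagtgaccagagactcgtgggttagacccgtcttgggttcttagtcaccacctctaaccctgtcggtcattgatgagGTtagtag

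For exon 9 of ATP5F1C, a 37-base exon (chr10:7806974-7807010, plus strand) that is known to be left out in muscle, both splice sites are shown with 3 exonic bases each.
ATP5F1C 3′ splice site of exon 9: tcttctaatataataaccAGgga
ATP5F1C 5′ splice site of exon 9: gagGTaaag

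All 704 member introns could be read in the genome, and 693 of them (98.4%) ran from GT to AG, against 99.0% of the 111239 tested introns with annotated exon boundaries at both ends. The other 11 ran from GC to AG (1.56% against 0.930%), and 0 were of the AT-AC type. Their median length was 2256 bases against 2605. The donor sequence GTAAG, searched as the first 5 intronic bases on the strand of the gene, was present in 25.1% of members and 26.9% of these tested introns. Of the members, 407 joined neighbouring exons of the canonical transcript, 50 skipped at least 1 of its exons, and the others used at least 1 splice site outside it. In 83 members the same intron is also annotated in a gene other than the member. The members were measured more tightly than the table as a whole. Their median within-group SD was 1.34 percentage points against 3.11 over all tested introns (0.23 against 0.60 on the log2 odds scale of the fit), and their median PSI was 31.2% against 17.6%. A PSI value repeated in more than 1 library, which need not be a measured level, occurred in 1.56% of members and 17.3% of all.

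Differences were tested with limma on log2((PSI + 0.01)/(1 - PSI + 0.01)), a log2 odds, over all 152722 introns, and an intron was called at a Benjamini-Hochberg adjusted p under 0.05. Of the 8 comparisons, 2 called any member. With MYCN over all libraries (9 MYCN+ against 9 MYCN-), 16 members in 14 genes were called, 8 higher (0.681% of all introns were called higher) and 8 lower (0.547% of all), which is 2.27% of members where 1.23% of all introns were called. At an unadjusted p under 0.05 stood 116 members (16.5% against 11.7% of all). With MYCN and knockdown together against wildtype (6 libraries against 3), 6 members in 5 genes were called, or 0.852% where the background was 0.559%. Of these, 4 were higher (background 0.35%) and 2 lower (0.209%), and 106 members had an unadjusted p under 0.05 (15.1% against 11%). These shares stand beside the tighter measurement of the members, whose part in them was not tested. The median absolute difference of PSI between MYCN+ and MYCN- was 0.612 percentage points over members and 1.21 over all introns. The comparisons share libraries, so their calls are not independent.

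SNRPD3 knockdown over all libraries (12 against 6) called 0 members by limma, where 0.0242% of all introns were called, and 63 members had an unadjusted p under 0.05 (8.95% against 7.8% of all introns). The other comparisons also called 0 members by limma. For MYCN with control siRNA (3 against 3), 0.0543% of all introns were called, and 33 members had an unadjusted p under 0.05 (6.19% of all introns did). For knockdown with MYCN repressed, 0.0138% were called and 21 members had such a p (4.69% of all). For knockdown with MYCN expressed, the values were 0.0196% and 54 members (7.06% of all), for the interaction of knockdown and MYCN 0.0177% and 10 (3.98%), and for siRNA #1 against siRNA #2 0.0183% and 19 (5.38%).

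Complex V held 5 of the 16 introns called for MYCN, in 4 of its 16 tested genes and out of 58 introns (8.62%, against 1.23% of all introns). The called introns of ATP5PF lie in the same cluster, so their PSI values are tied and they are not fully separate observations. The largest of the called differences lay in ATP5F1C, the gamma subunit that forms the rotating central stalk of the enzyme. The intron that skips exon 9 (chr10:7802855-7807658) had a PSI of 5.15%, 6.91% and 14.9% (lowest, median and highest) in the 9 MYCN+ libraries and of 10.2%, 15% and 25.4% in the 9 MYCN- libraries. Skipping was thus lower with MYCN, although the highest MYCN+ library lay above the lowest MYCN- ones. The difference was -7.70 percentage points (-1.03 ± 0.18 log2 odds, SE), with a limma adjusted p of 0.0130. By group, the mean was 12.4 ± 1.92% in wildtype, 5.58 ± 0.705% in MYCN+/SNRPD3+, 14.3 ± 2.90% and 20.6 ± 5.23% with siRNA #1 and #2 in MYCN- cells, and 7.78 ± 1.93% and 10.9 ± 3.98% with the same siRNAs in MYCN+ cells (SD, n = 3). Within each siRNA the MYCN+ mean was the lower one. The intron was also higher with knockdown by 4.42 points over all libraries, which did not pass (adjusted p = 0.406, limma), and the interaction did not pass either (adjusted p = 1.00, limma). The introns on either side of exon 9 were higher with MYCN by 3.56 and 4.14 points, and neither passed (adjusted p = 0.185 and 0.134, limma).

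ATP5MF encodes the f subunit in the membrane part of complex V, and its change ran the opposite way. The intron that skips exon 3, a coding exon with a length that is a multiple of 3, had a PSI of 7.50%, 8.16% and 12% in MYCN+ libraries and of 4.54%, 5.64% and 6.63% in MYCN- libraries. The 2 sets of libraries did not overlap, which held for 7 members (0.994%) and 0.353% of all introns. Skipping rose by 3.25 points (0.62 ± 0.10 log2 odds, adjusted p = 0.0115, limma). The means were 5.20 ± 0.724% in wildtype, 7.70 ± 0.293% in MYCN+/SNRPD3+, and 9.68 ± 2.01% and 9.15 ± 1.82% with siRNA #1 and #2 in MYCN+ cells, where replicate 3 was the highest library of either siRNA (12% and 11.2%). In MYCN- cells the siRNA groups stood at 5.68 ± 0.875% and 5.91 ± 0.411%.

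The other calls in complex V concerned the choice of the exon joined to the 5′ part of the transcript. ATP5MK encodes a small accessory subunit of the membrane part. The intron joining its exon 2 to exon 3 (chr10:103392467-103395745) had a PSI of 10.3%, 11.7% and 12.5% in MYCN+ libraries and of 7.64%, 8.53% and 8.93% in MYCN- libraries, with no overlap. It rose by 3.07 points (0.45 ± 0.06 log2 odds, adjusted p = 0.00360, limma), the smallest p among the members in this comparison. Most transcripts joined exon 1 directly to exon 3, an intron with a mean PSI of 79.6% whose own difference of -4.18 points did not pass (adjusted p = 0.221, limma).

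ATP5PF encodes coupling factor 6, a part of the stationary stalk of complex V. Of the exons joined to its exon 2, the canonical exon 1 had a mean PSI of 72.8%, and its difference of 1.43 points did not pass (adjusted p = 0.583, limma). The intron from an alternative first exon (chr21:25729802-25734988) had a PSI of 8.59%, 9.32% and 11.5% in MYCN+ and of 11.2%, 12.8% and 13.9% in MYCN- libraries, and fell by 3.08 points (adjusted p = 0.00994, limma). The intron from an annotated exon between exons 1 and 2 (chr21:25729802-25734332), into which an intron from exon 1 with a mean PSI of 1.23% leads, had a PSI of 4.41%, 4.83% and 5.33% in MYCN+ and of 3.27%, 3.79% and 4.13% in MYCN- libraries. It rose by 1.15 points (adjusted p = 0.0214, limma), and its libraries did not overlap.

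**Figure D1:**
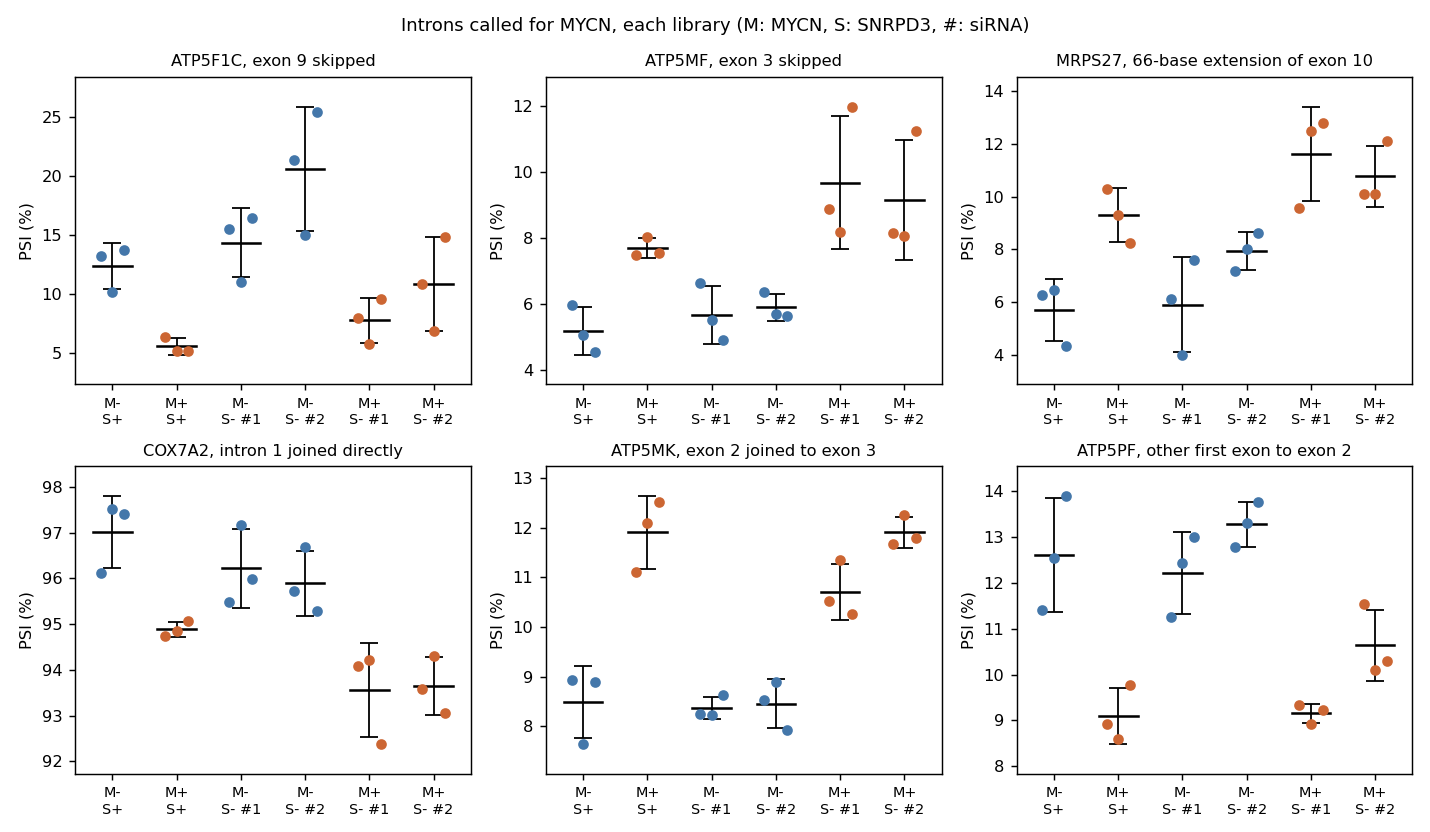
PSI in percent (vertical axes, each with its own range and not starting at 0) of 6 introns called for MYCN, in each of the 18 libraries by group. Points are libraries, bars are the mean and SD of 3 libraries, blue is MYCN- and orange MYCN+. The ATP5MF, COX7A2 and ATP5MK panels show MYCN+ and MYCN- libraries without overlap, and the ATP5F1C panel shows them overlapping.

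In the mitochondrial ribosome, 4 introns of 3 genes were called for MYCN among 301 tested introns of 70 genes, a share of 1.33% that lay near the 1.23% of all introns. MRPS27, a protein of the small subunit, used the earlier 3′ splice site of exon 10 more often with MYCN. The intron that ends there (chr5:72223917-72226056) had a PSI of 8.25%, 10.1% and 12.8% in MYCN+ libraries and of 4.02%, 6.48% and 8.61% in MYCN- libraries. The ranges met only at their edges, and the PSI rose by 4.04 points (0.70 ± 0.12 log2 odds, adjusted p = 0.0156, limma). The cluster holds 2 introns, so the usual intron (chr5:72223851-72226056) fell by the same amount and is not a second observation. The group means were 5.70 ± 1.17% in wildtype, 9.29 ± 1.03% in MYCN+/SNRPD3+, 5.91 ± 1.80% and 7.93 ± 0.710% with siRNA #1 and #2 in MYCN- cells, and 11.6 ± 1.79% and 10.8 ± 1.15% in MYCN+ cells.

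MRPS33, also of the small subunit, used an alternative first exon less with MYCN. The intron from that exon to exon 2 (chr7:141010661-141014550) had a PSI of 7.75%, 9.30% and 10.1% in MYCN+ libraries and of 10.4%, 11.3% and 12.4% in MYCN- libraries, with no overlap. It fell by 2.24 points (adjusted p = 0.0200, limma). In MRPL51, a protein of the large subunit, the 85-base canonical intron 1 (chr12:6492973-6493057) had a PSI of 74.8%, 76.9% and 79.4% in MYCN+ and of 79.7%, 81.4% and 82.5% in MYCN- libraries. It fell by 3.91 points (adjusted p = 0.0455, limma), but stayed called in only 2 of the 18 fits that left out 1 library, with adjusted p up to 0.0931 over its alternatives.

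Complex IV had 1 called intron among 22, in COX7A2, which encodes a small structural subunit. Its canonical intron 1 (chr6:75241266-75243716) had a PSI of 92.4%, 94.2% and 95.1% in MYCN+ libraries and of 95.3%, 96.1% and 97.5% in MYCN- libraries, which did not overlap. It fell by 2.34 points (-0.64 ± 0.11 log2 odds, adjusted p = 0.0118, limma). The other introns of the cluster are the ones that enclose the 116-base exon printed above. They have 1 annotated end each, so they are not members, and they were singled out after their values were seen. Its downstream intron had group means of 1.86% in wildtype, 3.26% in MYCN+/SNRPD3+, and 4.06% and 3.90% with siRNA #1 and #2 in MYCN+ cells, and rose with MYCN by 1.43 points (adjusted p = 0.0229, limma). Its upstream intron rose by 0.909 points (adjusted p = 0.0124, limma).

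Of 125 introns of complex I, 2 were called for MYCN, both higher, and of 84 introns of its assembly factors 1 was. Complex III had 1 intron called higher and 2 lower among 23, a larger share than in complex V. Of all introns, 1.23% were called. NDUFS1 is the largest core subunit of complex I and carries iron-sulphur clusters of its electron path. The intron that skips its exon 3 (chr2:206149926-206153617) had a PSI of 2.21%, 3.03% and 4.59% in MYCN+ libraries and of 1.32%, 1.70% and 2.63% in MYCN- libraries, and rose by 1.26 points (adjusted p = 0.0257, limma). Low and overlapping values thus lay behind the call, which was lost without any of 6 libraries, with adjusted p from 0.0517 to 0.0575. These were MYCN+/SNRPD3+ replicate 2, wildtype replicate 2, MYCN+/SNRPD3- siRNA #2 replicates 2 and 3, and MYCN-/SNRPD3- siRNA #2 replicates 1 and 3.

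NDUFAF6, an assembly factor of complex I, had a called intron with neither end in the canonical transcript, higher by 5.89 points with MYCN (adjusted p = 0.0352, limma). Its libraries fell into low and high values. The 9 MYCN- libraries stood from 0.115% to 6.46% with a median of 0.148%, and 1 MYCN+ library stood at 0.120% while the median was 5.23% and the highest 12.6%. Since PSI in these files is never exactly 0, values near 0.1% may hold no reads, which could not be checked. The call stayed in 3 of 18 fits that left out 1 library.

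The remaining called introns fell outside the rule for named genes and were named after their values were seen. NDUFA12, an accessory subunit of complex I, skipped exon 3 more with MYCN, with a PSI of 1.67%, 2.27% and 3.91% against 0.986%, 1.36% and 1.69% (0.994 points, adjusted p = 0.0231, limma), a call that stayed in 14 of the 18 fits that left out 1 library. In complex III, UQCRQ, a small subunit, skipped exon 2 more, with a PSI of 1.48%, 2.06% and 2.44% against 1.15%, 1.20% and 1.43% and no overlap (0.754 points, adjusted p = 0.0156, limma). UQCRH, the hinge protein near cytochrome c1, used less of an intron that leads into an exon of a transcript annotated as a target of nonsense-mediated decay, with a PSI of 1.04%, 1.17% and 1.46% against 1.33%, 1.82% and 1.97% (-0.578 points, adjusted p = 0.0174, limma). UQCRB, a further subunit, lost 1.06 points of its canonical intron 3, from a median of 97.6% to 96.4% (adjusted p = 0.0326, limma), which stayed called in 3 of 18 such fits. These differences were small, at about 1 point of PSI or less. Each of these 4 calls stayed in 4 of 6 alternatives other than leaving out a library, and over all alternatives the adjusted p reached 0.23 for NDUFA12, 0.319 for UQCRQ, 0.456 for UQCRH and 0.171 for UQCRB (limma). Complex II, its assembly factors and the complex IV assembly factors had 0 calls for MYCN by limma. At an unadjusted p under 0.05 stood 1 of 21, 2 of 14 and 7 of 56 of their introns, where 11.7% of all introns did.

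**Figure D2:**
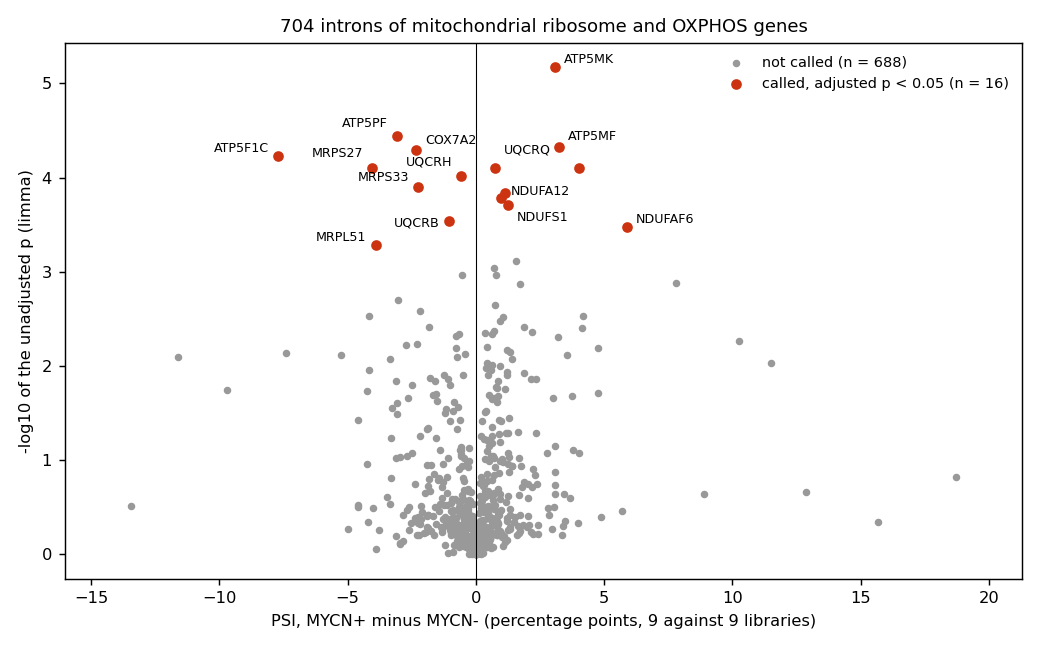
Difference of PSI between the 9 MYCN+ and the 9 MYCN- libraries in percentage points (horizontal axis) against -log10 of the unadjusted limma p (vertical axis) for the 704 members. The 16 called introns are red, and each gene is labelled at its intron of largest difference, so the mirror intron of MRPS27 and the smaller change of ATP5PF carry no label. Called introns lie on both sides of 0, and most differ by under 5 points.

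The comparison of MYCN+ cells with knockdown against wildtype combines both changes. COX7A2, ATP5MF and MRPS27 were called there too. All libraries of this comparison are also part of the MYCN comparison above, on the same sides, so these calls are not separate evidence. COX7A2 fell by 3.41 points to 93.6 ± 1.02% and 93.7 ± 0.630% with siRNA #1 and #2, from 97.0 ± 0.785% in wildtype (adjusted p = 0.0259, limma). ATP5MF exon 3 skipping was higher by 4.22 points (adjusted p = 0.0436, limma), and the MRPS27 extension by 5.49 points (adjusted p = 0.0442, limma).

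The other 2 calls were low-level introns of ribosomal proteins. MRPS11, of the small subunit, used a 5′ splice site inside intron 2, joined to exon 3 (intron chr15:88469146-88472626), with a PSI of 0.412%, 0.169% and 0.402% in the wildtype libraries, 2.5%, 1.66% and 3.41% with siRNA #1 and 1.53%, 1.81% and 3.63% with siRNA #2 in MYCN+ cells. All 6 libraries lay above the 3 wildtype ones, and the difference was 2.09 points (1.36 ± 0.27 log2 odds, adjusted p = 0.0453, limma). In MRPL9, of the large subunit, an intron that skips exon 5 from a 5′ splice site within exon 4 (chr1:151760900-151762112) stood at 1.01%, 1.08% and 0.839% in wildtype, 2.21%, 2.36% and 2.86% with siRNA #1 and 2.33%, 1.64% and 1.93% with siRNA #2 (1.25 points, adjusted p = 0.0453, limma). The joining of these 2 exon boundaries is not itself annotated. Apart from COX7A2, each of these calls stayed in 3 or 4 of the 18 fits that left out 1 library. COX7A2 was lost without wildtype replicate 2 (adjusted p = 0.125) or 3 (0.111) and without replicate 3 of MYCN+/SNRPD3- siRNA #1 (0.0504) or #2 (0.0558), all by limma. Over all members, wildtype and MYCN+/SNRPD3- libraries did not overlap in 80 introns, which is 11.4% of members where 6.53% of all introns had no overlap. In the list of other mitochondrial genes described below, 61 of 512 introns (11.9%) had no overlap, so the share was not particular to the members. The part of the members' tighter measurement in it was not tested.

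The largest difference among the members named for this comparison did not pass. MRPS10 is a protein of the small subunit whose 73-base exon 3 (chr6:42214120-42214192) is not a multiple of 3. The intron that skips it had a PSI of 4.12%, 4.83% and 4.52% in the wildtype libraries. In MYCN+ cells it stood at 13.2%, 12.1% and 28.3% with siRNA #1 and at 12.4%, 12.3% and 28.2% with siRNA #2, so replicate 3 was more than 2 times the other replicates with either siRNA. The difference from wildtype was 13.3 points (1.89 ± 0.39 log2 odds, adjusted p = 0.0528, limma), with adjusted p from 0.00857 to 0.207 over its alternatives. MYCN+/SNRPD3+ cells stood between, at 8.32 ± 1.71%, as did MYCN- cells with siRNA #1 (8.89 ± 3.06%) and #2 (7.08 ± 2.95%). Among the other named introns, NDUFS1 exon 3 skipping (1.74 points, adjusted p = 0.0567), the UQCRH intron (-0.761 points, adjusted p = 0.0522), the ATP5MK intron (2.82 points, adjusted p = 0.0704) and an intron into exon 3 of MRPL38 (2.82 points, adjusted p = 0.0691) also missed the threshold by limma.

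No member passed for knockdown itself, so the introns with the smallest unadjusted p are given as values. The largest difference among them was in NDUFAF7, a methyltransferase needed to assemble complex I. An intron into its exon 7 (chr2:37241638-37243862) had a PSI of 9.76%, 15.5% and 24.4% in the 12 knockdown libraries and of 5.99%, 8.51% and 9.74% in the 6 control libraries. The 2 sets just failed to overlap, which held for 2 members (0.284%) and 0.0642% of all introns, and the difference was 7.46 points (0.94 ± 0.24 log2 odds, adjusted p = 0.276, limma). The other member without overlap was the intron skipping exon 3 of NDUFAF2, another complex I assembly factor, named after its values were seen. It stood at 2.33%, 2.95% and 4.82% with knockdown and at 2.04%, 2.20% and 2.30% without (0.904 points, adjusted p = 0.463, limma).

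Among the other named introns for knockdown, MRPS11 (1.37 points, adjusted p = 0.195), the intron skipping exon 2 of COX16 (1.63 points, 0.212), the intron skipping exon 3 of MRPS18C (2.46 points, 0.345), MRPL21 (1.48 points, 0.360) and NDUFA2 (0.676 points, 0.368) had higher values in knockdown libraries. Lower values were seen for the canonical intron 3 of COX11 (-4.57 points, adjusted p = 0.318), for MRPL32 (-1.40 points, 0.336), and for the canonical introns of UQCRC2 (-1.56 points, 0.344) and MRPS16 (-0.591 points, 0.350). COX11 and COX16 serve the assembly of complex IV, UQCRC2 is a core protein of complex III, and the others are ribosomal proteins except NDUFA2 of complex I. All of these adjusted p-values are from limma, and none passed. For COX11 the values were 78.8 ± 0.574% in wildtype and 76.4 ± 1.64% in MYCN+/SNRPD3+, against 73.4 ± 0.657% and 73.0 ± 1.3% with siRNA #1 and #2 in MYCN- cells and 71.3 ± 4.27% and 74.5 ± 2.71% in MYCN+ cells. Its knockdown libraries overlapped the control libraries between 74.6% and 76.6%.

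The members that skip an exon gave a common direction that single introns did not. Of the 50 exon-skipping introns, in 43 genes, 46 (92.0%) had a higher mean PSI in knockdown libraries than in controls, against 74.1% of the 12373 exon-skipping introns of all genes. The median difference was 0.475 percentage points, and 0.535 over all genes, so the members shared the direction of the table with a slightly smaller median. Of the 50, 17 (34.0%) had an unadjusted p under 0.05 with a higher value and 0 with a lower one, against 16.4% and 1.3% of the exon-skipping introns of all genes. The 407 canonical introns went the other way, with higher values in 41.8% of members and 46.4% of all. Where they share a cluster with a skipping intron this is not a separate observation, since the PSI values of a cluster are tied. The members were also measured more tightly (median within-group SD 0.23 against 0.60 log2 odds over all tested introns). The part of this in the shares above was not tested.

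The mean PSI over the 50 introns was 5.43 ± 0.0391% in wildtype, 5.47 ± 0.247% in MYCN+/SNRPD3+, 5.96 ± 0.385% and 5.89 ± 0.378% with siRNA #1 and #2 in MYCN- cells, and 6.79 ± 0.649% and 6.41 ± 0.638% in MYCN+ cells (SD, n = 3). The means were highest with MYCN and knockdown, and the MYCN+ and MYCN- knockdown libraries overlapped. The means of wildtype and MYCN+/SNRPD3+ were close, and 2 of the 3 MYCN+/SNRPD3+ libraries (5.31% and 5.35%) lay below each wildtype library. Such a mean depends most on introns of high PSI, such as the ATP5MK intron that skips exon 2 (81.0% in wildtype, 76.1% in MYCN+/SNRPD3+). Counted by intron, 32 of the 50 (64.0%) were higher in MYCN+/SNRPD3+ than in wildtype, against 60.6% of all. The median difference was 0.0877 points, against 0.252 over all. In the order of groups above, the mean PSI over all 12373 introns was 7.97%, 8.50%, 8.59%, 8.48%, 9.82% and 9.53%. In each of the 4 knockdown groups the third replicate had the highest mean of its group, both over the members (6.33%, 6.28%, 7.53% and 7.14%) and over all genes, and the second the lowest. With control siRNA the same order held in wildtype over the members and in MYCN+/SNRPD3+ over all genes. It did not hold in wildtype over all genes or in MYCN+/SNRPD3+ over the members. Without the third replicates of the knockdown groups, an alternative chosen after seeing these means, 42 of the 50 introns were higher with knockdown (84.0%), against 69.1% of all. With MYCN over all libraries 40 of the 50 (80.0%) were higher, against 72.4% of all, and with both against wildtype 45 (90.0%) against 77.6%. These shares describe introns that share libraries and partly clusters, and no test was made over them.

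**Figure D3:**
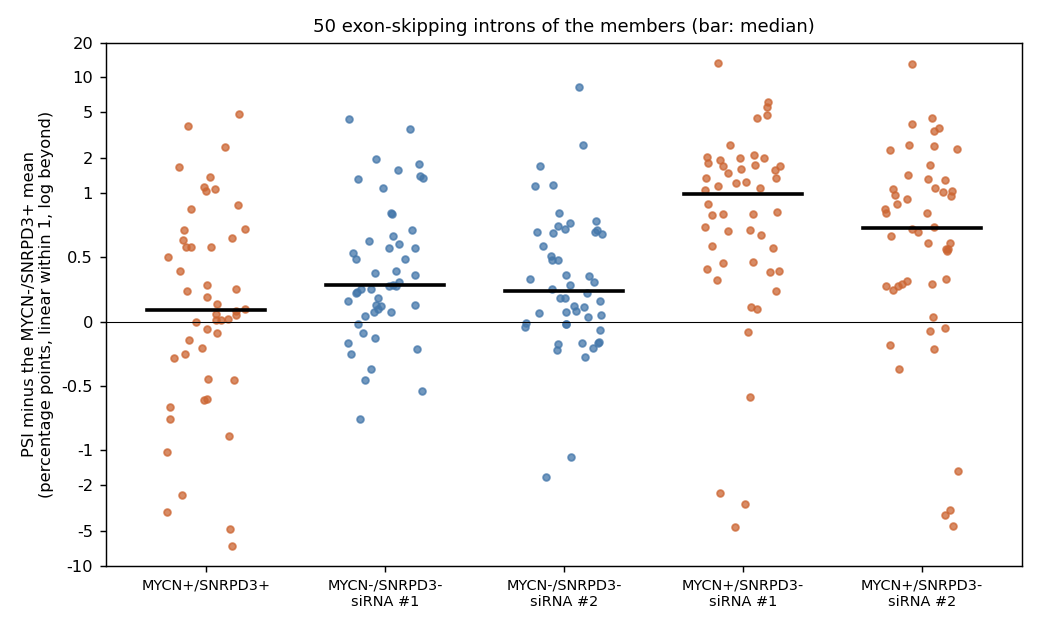
Mean PSI of each of the 50 exon-skipping introns of the members in 5 groups, minus its mean in wildtype MYCN-/SNRPD3+ libraries, in percentage points (vertical axis, linear within 1 point and logarithmic beyond). Points are introns and the bar is their median. Of the 50, 32 lie above 0 in MYCN+/SNRPD3+, 40 and 36 with siRNA #1 and #2 in MYCN- cells, and 45 and 41 in MYCN+ cells.

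A skipping share, the PSI of the skipping intron divided by its sum with the mean PSI of the 2 flanking introns, could be given for 142 exons of 92 member genes. It was under 5% for 115 exons, from 5% to 20% for 20 and at least 20% for 7, with a median of 1.32%. Most of these 142 exons were therefore seldom skipped in these cells. Exons without a skipping intron in the table have no share. Of the 125 exons that are coding throughout, 42 are a multiple of 3 in length, and the median share was 1.28% in these and 1.37% in the others.

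The 10 exons closest to a share of 50% came from complexes I and V, the ribosome and assembly factors. In complex I, exon 3 of NDUFV3, an accessory subunit of the flavoprotein arm, is 1095 bases long and gives a long and a short form of the protein. Its skipping share was 73.9 ± 1.77% in wildtype, 78.7 ± 2.11% in MYCN+/SNRPD3+, 73.9 ± 0.691% and 74.8 ± 0.751% with siRNA #1 and #2 in MYCN- cells, and 80.7 ± 0.443% and 80.4 ± 0.470% in MYCN+ cells. Skipping of the exon thus prevailed among the spliced reads in each group, and protein was not measured. The PSI of the skipping intron was 4.78 points higher with MYCN, which did not pass (adjusted p = 0.169, limma). Exon 2 of NDUFC1, a membrane-arm subunit of complex I, is noncoding and had a share of 80.5% over all libraries. Exon 5 of NDUFAF5, an assembly factor of complex I, had a share of 24.9%.

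In the ribosome, exon 3 of MRPL33 had a share of 37.9% that ranged from 33.6% to 42.3% over the 18 libraries, exon 5 of MRPL9 one of 20.1% and exon 3 of MRPS18C one of 14.2%. The share of exon 3 of MRPS10 ranged furthest, from 8.28% to 45.7%. Exon 2 of COX20, which helps to insert a core subunit of complex IV, had a share of 19.8 ± 3.40% in wildtype and 13.9 ± 1.37% in MYCN+/SNRPD3+. With siRNA #1 it stood at 25.6 ± 2.39% in MYCN- and 24.1 ± 4.94% in MYCN+ cells, and with siRNA #2 at 17.8 ± 1.68% and 13.6 ± 0.604%. The skipping intron was 5.50 points higher with siRNA #1 than with siRNA #2, with the smallest p among the members in that comparison, and the difference did not pass (adjusted p = 0.178, limma). Exon 9 of ATP5F1C had a share of 22 ± 3.08% in wildtype and 10.6 ± 1.26% in MYCN+/SNRPD3+, and up to 34.0 ± 7.28% with siRNA #2 in MYCN- cells.

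**Figure D4:**
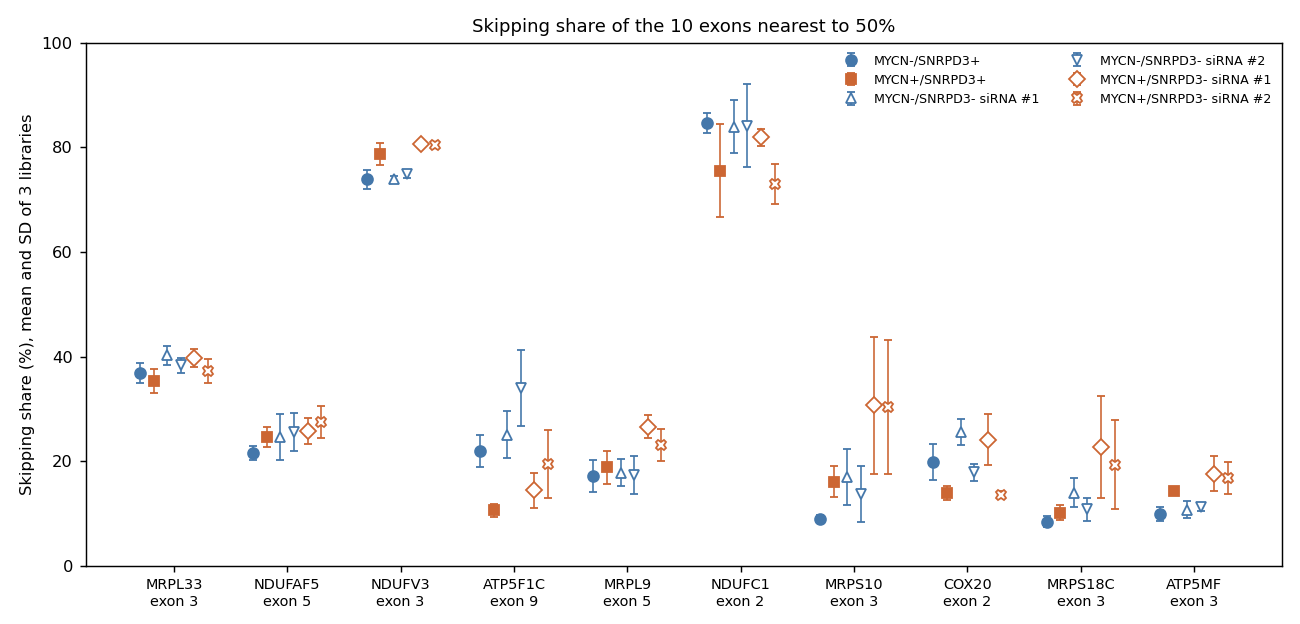
Skipping share in percent (vertical axis, from 0 to 100) of the 10 member exons closest to 50%, by gene and exon of the canonical transcript. Symbols are group means and bars the SD of 3 libraries, blue for MYCN-, orange for MYCN+, filled for control siRNA and open for SNRPD3 siRNA. NDUFV3 and NDUFC1 lie above 70%, and MRPS10 has the widest bars, in MYCN+ cells with SNRPD3 siRNA.

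For interaction and siRNA contrasts, the named members were again short of the threshold. The strongest for the interaction was the canonical intron 4 of NDUFA13, a complex I subunit, whose PSI with control siRNA was 98.1 ± 0.492% in MYCN- and 96.9 ± 0.347% in MYCN+ cells, and with knockdown 97.1 ± 0.143% and 97.6 ± 0.737% in MYCN- cells against 98.3 ± 0.179% and 97.6 ± 0.373% in MYCN+ cells (1.75 points, adjusted p = 1.00, limma). This intron is also annotated in an overlapping gene. An intron of NDUFAF7, and introns of COX17, a copper chaperone for complex IV, and COX20 followed, all with an adjusted p of 1.00. For the siRNAs, introns of NDUFAF6 (-1.40 points, adjusted p = 0.437), MRPS27 (-0.960 points, 0.660) and MRPL35 (-4.31 points, 0.710) came after COX20, by limma. For knockdown with MYCN repressed, the named introns were in NDUFAF7 (into exon 5, -3.45 points, adjusted p = 0.581), COX11 (-5.61 points, 0.840), MRPS11 (1.03 points, 0.913) and the canonical intron 5 of MRPL21 (-1.68 points, 0.955). With MYCN expressed they were in COX16 (2.41 points, 0.243), MRPS16 (-0.989 points, 0.336), MRPS11 (1.72 points, 0.358) and UQCRC2 (-2.40 points, 0.410), again by limma. For MYCN with control siRNA alone, ATP5MK (3.42 points, adjusted p = 0.226), ATP5PF (1.71 points, 0.226), ATP5F1C (-6.79 points, 0.388) and COX7A2 (-2.13 points, 0.412) came first, with the signs seen over all libraries, of which these are a part.

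Other genes of the same pathways that the symbol rule leaves out, such as further assembly factors and the factors of mitochondrial translation, were taken as a list of 84 genes, of which 74 had 512 tested introns. For MYCN, 8 of these introns in 5 genes were called, 3 higher and 5 lower (1.56% of the list, near the 1.23% of all introns), and for MYCN with knockdown against wildtype 8 in 6 genes, 6 higher and 2 lower (1.56% against 0.559%). The other comparisons called 0 by limma. At an unadjusted p under 0.05 stood 43 of the introns for knockdown over all libraries (8.40% against 7.8% of all introns) and 32 for MYCN with control siRNA (6.25% against 6.19%). For knockdown with MYCN repressed and expressed there were 21 (4.10% against 4.69%) and 33 (6.45% against 7.06%), for the interaction 16 (3.12% against 3.98%) and for the siRNAs 14 (2.73% against 5.38%). LRPPRC, which stabilises mitochondrial mRNAs, skipped exon 35 more with MYCN (2.40 points, adjusted p = 0.00375), at 2.04 ± 0.302% in wildtype, 3.64 ± 0.0727% in MYCN+/SNRPD3+ and 5.37 ± 0.773% and 6.00 ± 1.63% with siRNA #1 and #2 in MYCN+ cells. MRRF, the ribosome recycling factor of mitochondria, used less of an intron into exon 5 from an alternative exon (-1.79 points, adjusted p = 0.00563). COA1, an assembly factor, had its canonical intron 1 higher by 10.4 points (adjusted p = 0.0179), and COA5, which serves complex IV, its own lower by 7.81 points (adjusted p = 0.0368). TMEM70, for complex V, was the remaining gene called for MYCN (-2.73 points, adjusted p = 0.0476). Against wildtype, ACAD9, an assembly factor of complex I (3.24 points, adjusted p = 0.0407), and NSUN4, a methyltransferase for mitochondrial rRNA (3.13 points, adjusted p = 0.0225), were called beside COA1, COA5, LRPPRC and MRRF. These adjusted p-values are from limma.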

How the data were processed

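RNA-seq libraries from 6 groups of SHEP.tet21n cells, 3 per group, were analysed. Per the submitters' processing notes and methods, STAR 2.5.0a mapped reads to hg38, SAMtools 1.3.1 handled the alignments, and leafcutter (version not given in the sources used here) grouped introns into clusters. The authors deposited PSI as fractions for 233650 introns in 51819 clusters. The fractions of a cluster add up to 1, and no value is 0 or 1 itself. Reads per intron are not given, so depth is unknown and a single PSI has no interval. All columns matched a library. The authors also deposited their own comparisons (FDR and delta PSI), which were not used. A PSI is a share of a cluster, so a change in 1 intron moves its partners.

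Introns were placed on GENCODE 44, and exons were numbered along the Ensembl canonical transcript. Members had both ends at annotated exon boundaries of a member gene, which left out 360 introns with 1 such end. PSI was fitted with limma 3.58.1 (R 4.3.3) as log2((PSI + 0.01)/(1 - PSI + 0.01)) for all introns with a mean PSI from 0.01 to 0.99, with 6 group means in 1 fit and Benjamini-Hochberg adjustment over all introns within each of 8 comparisons. The fit was tested on simulated data. Of 200 introns shifted by 1, 2 and 4 log2 odds in the knockdown comparison over 152722 introns, 63, 119 and 167 were called, with 3, 6 and 8 false calls. The simulated noise came from shuffled deviations from the group means, which spread less than the data, so recovery may be overstated. The shifted introns were drawn from all tested introns, so these rates do not carry over to the members or to the MYCN calls. Tables were made with pandas 2.3.3 and numpy 2.4.6 in Python 3.11.15, plots with matplotlib 3.10.9.

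Named were, 1 per gene, the called members of largest difference (up to 10 for knockdown, MYCN, and both against wildtype, up to 4 otherwise), filled up with the smallest unadjusted p among introns with at least 15 different values, and the 10 exons with a skipping share closest to 50%. The members, the other gene lists and the tests were chosen with earlier results of these data known. Alternatives were other offsets and filters, PSI itself, only the groups compared, a replicate block, only introns with 18 different values, and leaving out each library in turn. The sequence of 1 exon is not reported here.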

Additional observations from a re-analysis of the deposited data

How the results depend on the processing

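The 16 members called for MYCN became 8 with a mean PSI from 0.05 to 0.95, which tests fewer introns, 12 on PSI itself and 12 with an offset of 0.05, 17 with an offset of 0.001 and 17 without a filter, 20 among introns with 18 different values, and 11 to 17 without 1 library. The 6 called for MYCN with knockdown against wildtype became 0 when the fit held the compared groups alone, 3 with an offset of 0.05, 3 without a filter, 10 among introns with 18 different values, 9 with an offset of 0.001, and 4 on PSI itself or from 0.05 to 0.95. They became 0 to 6 without 1 library. The count was 0 without wildtype replicate 2 or 3 or replicate 3 of MYCN+/SNRPD3- siRNA #1 or #2, 1 without wildtype replicate 1, MYCN+/SNRPD3+ replicate 2, MYCN+/SNRPD3- siRNA #2 replicate 1 or MYCN-/SNRPD3- siRNA #2 replicate 1 or 3, 4 without MYCN-/SNRPD3- siRNA #1 replicate 2, 6 without its replicate 3, and 2 or 3 without any other library. The causes were not tested. The other 6 comparisons called 0 members under each alternative run. Over all introns, the alternatives called 1136 to 2283 rather than 1875 for MYCN, 202 to 1346 rather than 854 for MYCN with knockdown against wildtype, 51 to 581 rather than 83 for MYCN with control siRNA, 16 to 69 rather than 37 for knockdown, 2 to 156 rather than 21 and 4 to 172 rather than 30 for knockdown with MYCN repressed and expressed, 1 to 51 rather than 27 for the interaction and 10 to 59 rather than 28 for the siRNAs. None of the 1244 alternative values of the named introns changed sign. Leaving out a library that a comparison does not use cannot change its difference, so part of these signs were fixed. Of the values, 1110 kept their side of the threshold, while 121 lost it and 13 passed it. Many named introns were not called in the main fit, and only called ones could lose a call. The pooled counts therefore do not measure how stable the calls were. A fit of the compared groups alone was not run for comparisons that use all groups.

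Over all tested introns, the deviations of libraries of different groups with the same replicate number were hardly correlated (mean correlation 0.00615 over 45 pairs, -0.0509 to 0.0638). The numbers were therefore not taken as pairs. A correlation over all introns may miss a deviation that only some introns share. Over exon-skipping introns the third replicate had the highest and the second the lowest mean in each knockdown group. With a replicate block, 18 members were called for MYCN, 9 for MYCN with knockdown against wildtype, and 0 in the other comparisons. The intron skipping exon 3 of MRPS10 then passed against wildtype (adjusted p = 0.00857, limma; 0.00857 to 0.207 over its alternatives), as did that of NDUFS1 (0.0389; 0.0389 to 0.215). The calls lost were the MRPS27 extension against wildtype (0.0540; 0.0264 to 0.180) and, for MYCN, NDUFAF6 (0.0591; 0.00696 to 0.0921) and MRPL51 (0.0576; 0.0158 to 0.0931). Depth is unknown, so low PSI values such as those of NDUFAF6 and MRPS11 rest on an unknown number of reads.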
